A study of Mus musculus with 15 samples.

Results

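The genes described are the nuclear genes of the mitochondrial respiratory chain and of ATP synthase. They were taken by name, as every row of the deposited table whose symbol begins with Ndufa, Ndufb, Ndufc, Ndufs, Ndufv, Uqcr, Cox4 to Cox8 or Atp5, together with Sdha, Sdhb, Sdhc and Sdhd. The rule found 99 of 17271 genes. By role these are 7 core and 31 accessory subunits of complex I, 8 complex I assembly factors, 4 subunits of complex II, 8 of complex III, 12 of complex IV, 17 of ATP synthase, 6 tissue-restricted isoforms and 6 pseudogene copies. The 79 subunits of the complexes and of ATP synthase, without assembly factors, tissue-restricted isoforms and pseudogene copies, are called the ubiquitous subunits. The rule uses names and no measured value, and no filter on low values was applied here. A filter made before the table was deposited cannot be seen, and the isoforms Cox7b2 and Cox8c are not among its genes.

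The respiratory chain carries electrons from NADH (complex I) and succinate (complex II) through complex III and cytochrome c to oxygen at complex IV, and ATP synthase uses the proton gradient this builds. The nuclear subunits are made in the cytosol and imported, while a small set of central subunits is encoded by mitochondrial DNA, and the complexes need both. Most nuclear subunits are present in every tissue, but several small subunits of complex IV exist as isoform pairs in which a heart and skeletal muscle form, or a testis form, replaces the common form.

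RNA sequencing of poly(A) RNA was done on 15 mouse mammary tumours, all labelled p53-NULL and of strain Balbc, with no age given. By their titles 8 belong to the model 2208L, 4 to 2151R, 2 to 2225L and 1 to T11. In 2151R, replicate 2 is marked 53ca, replicates 3 and 4 are marked NT2 and NT, and replicate 1 has a numeric mark. In 2225L, replicate 1 is marked T-Vivo with a CP library number and replicate 2 has a ROSEN number. In 2208L, replicate 1 has a ROSEN number, replicates 2 to 5 are marked PBS, and replicates 6 to 8 are marked 3day nt; all other libraries have CP numbers. What these marks stand for is not stated, and nothing says that the samples of a model came from separate tumour lines or animals, so p-values measure only the spread between these samples. Each value is a log2 level set against a level of that gene that is not stated, so a gene can be compared between samples but genes cannot be ranked against each other. Depth is unknown.

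Replicate 3 of 2151R and replicates 6 and 8 of 2208L were read apart from the other 12 samples because skeletal muscle genes were very high in them. The median of 18 adult skeletal muscle genes was 5.89, 9.40 and 8.84 in these samples and ran from -3.43 to 2.45 in the other 12. The mammary epithelial list of 10 genes (Epcam, keratins and claudins) had sample medians of 0.20 to 1.17 in 2208L and 1.10 to 1.46 in 2225L, but of -6.10 to -4.97 in 2151R and -8.82 in T11. Unless stated otherwise, the 12 samples were used, among them 6 of 2208L and 3 of 2151R. A gene is called higher or lower where the limma adjusted p-value over all 17271 genes is under 0.05. The tumours were measured whole, so fewer cells of a type and less RNA per cell cannot be told apart.

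As a group the ubiquitous subunits were lowest in 2151R and T11, spread widely in 2208L and were highest in replicate 2 of 2225L. Their median was -0.44, -0.36 and -0.40 in replicates 1, 2 and 4 of 2151R and -0.46 in T11. It was 0.16 and 0.95 in replicates 1 and 2 of 2225L. In 2208L it was -0.20, -0.06, 0.06 and -0.47 in the PBS samples, 0.48 in replicate 7 and 0.70 in replicate 1. The 3 samples of 2151R thus lay within 0.08 of each other, below 5 of the 6 samples of 2208L, and PBS replicate 5 was as low as they were. By complex, the medians of complex I core, complex III, complex IV and ATP synthase each lay between -0.41 and -0.26 in the 3 samples of 2151R and between 0.73 and 0.96 in replicate 2 of 2225L. In 2151R the accessory subunits of complex I were lower, at -0.64 to -0.47, and complex II was higher, at -0.26 to -0.17. The median over all genes stayed between -0.29 and 0.10 in all 15 samples.

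**Figure D1:**
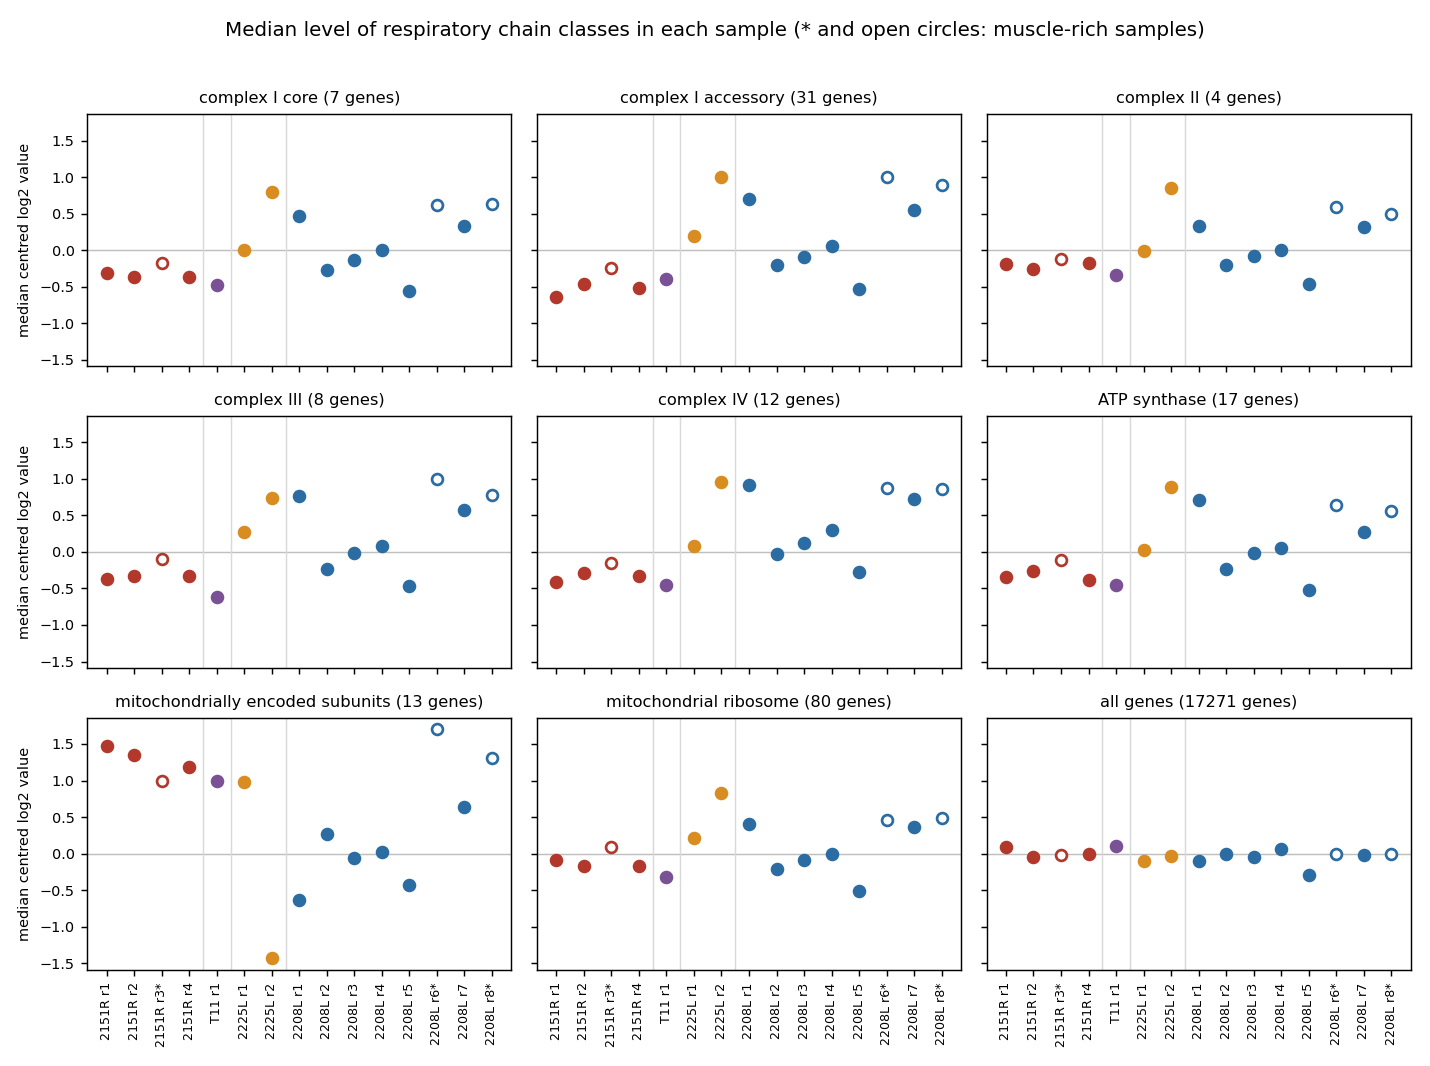
Each point is the median centred log2 value (vertical axis) of the genes of a class in 1 sample (horizontal axis, r for replicate), coloured by model; open circles and asterisks mark the 3 muscle-rich samples. The nuclear classes are low in 2151R and T11 and split 2208L into low PBS samples and higher other samples, while the 13 subunits encoded by mitochondrial DNA are high in 2151R (1.19 to 1.48 in its 3 other samples) and lowest in replicate 2 of 2225L (-1.43).

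**Figure D2:**
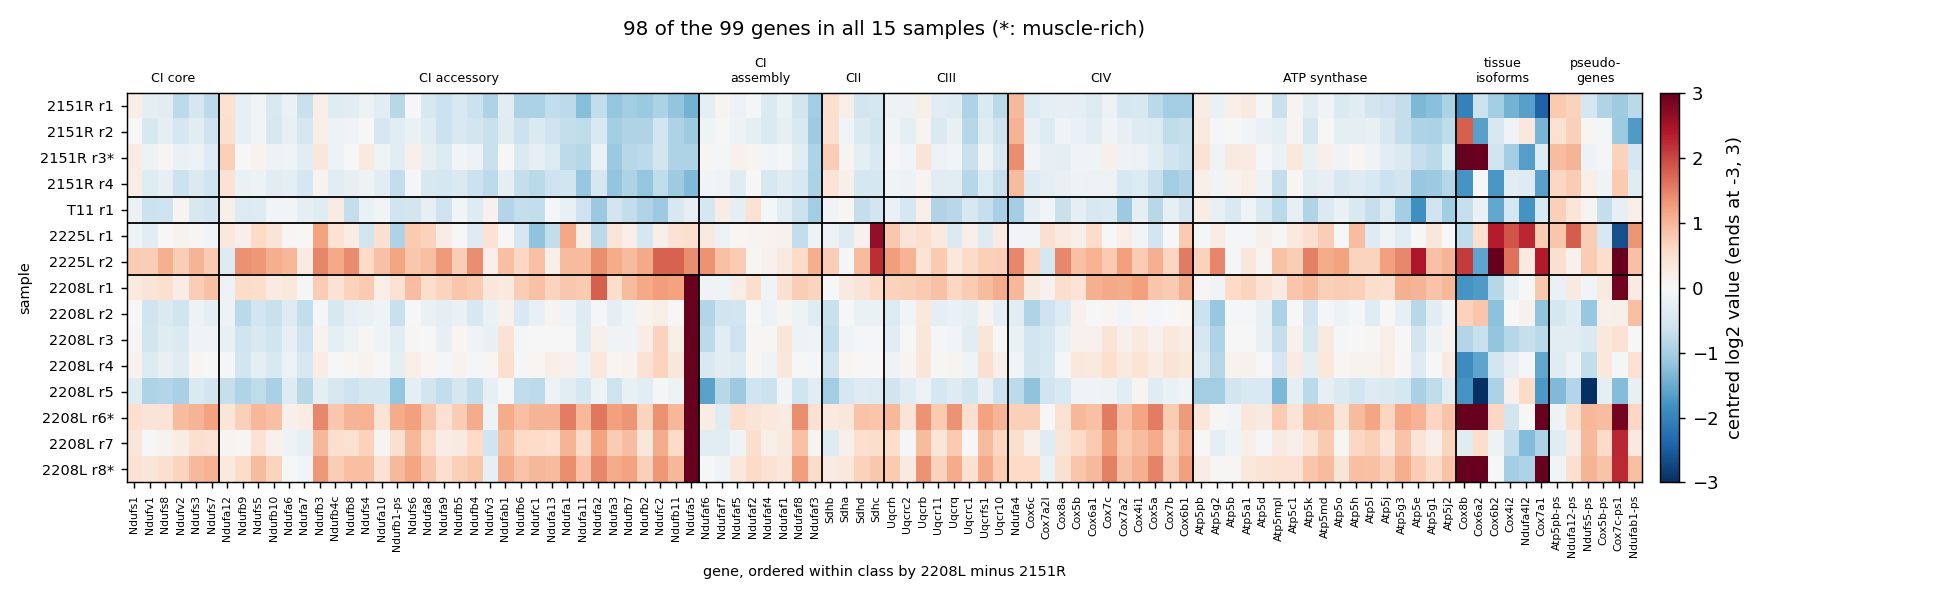
Colour gives the centred log2 value of 98 of the 99 genes (columns, grouped by class) in each of the 15 samples (rows, asterisk for muscle-rich), and the scale ends at -3 and 3. Most columns share the same pattern over samples; Ndufa5 in 2208L, Sdhc in 2225L and Cox6a2 and Cox8b in the muscle-rich samples stand out as dark cells.

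In 2151R against 2208L, genes of complex I made up most of the lower calls. Of the 99 genes, 20 were lower and 3 higher in 2151R, while 19.2% of all genes were lower and 23.6% higher. The share of lower calls was thus close to that of all genes, and the share of higher calls was below it. The median difference over the 99 genes was -0.43, against 0.14 over all genes. By class, 11 of 31 accessory and 0 of 7 core subunits of complex I were lower (1 core subunit at an unadjusted p under 0.05), as were 2 of 8 assembly factors, 1 of 8 complex III, 3 of 12 complex IV and 2 of 17 ATP synthase subunits. All samples of 2151R lay below all 6 of 2208L in 30 genes and above them in 6, against 20.6% and 26.3% of all genes. Leaving out replicate 1 or replicate 4 of 2151R reduced the lower calls to 8 and 9, while 2626 and 2572 of all genes were lower. Leaving out replicate 1 of 2208L raised the higher calls to 5, while 3860 of all genes were higher. Where each sample was centred on the median of its ubiquitous subunits, which itself fixes the balance of these genes, 15 were higher and 11 lower, and of all genes 5660 were higher and 1836 lower.

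Ndufa5, an accessory subunit in the matrix arm of complex I, had by far the largest difference. Its value was -1.41, -1.08 and -1.32 in 2151R, -0.25 in T11, 0.47 and 1.40 in 2225L, and 3.42 (lowest), 4.05 (median) and 4.76 (highest) in 2208L. The groups were well apart, and the muscle-rich samples kept to their models, with 4.72 and 4.88 in 2208L and -0.92 in 2151R. The difference of 2151R from 2208L was -5.40 ± 0.32 (SE, adjusted p = 3.71e-07) and that of 2225L from 2208L was -3.19 ± 0.37 (SE, adjusted p = 0.000151). Between 2225L and 2151R it was 2.21 ± 0.41 (SE, adjusted p = 0.00147). Relative to the median ubiquitous subunit of the same sample, Ndufa5 lay between 3.84 and 4.15 in all 8 samples of 2208L.

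Ndufa5 lies on chromosome 6 (chr6:24518662-24527690, GRCm38.p6) and genes beside it showed the same direction. Of the 20 nearest genes in the table, 10 on each side, 13 were called lower and 1 higher in 2151R than in 2208L, and 10 were lower by at least 2 log2 units, with a median of -1.998. In 2225L against 2208L, 12 were called lower and 0 higher, and 11 were lower by at least 2, with a median of -2.81. Among them Ing3, Fam3c and Wasl had differences of -3.62, -4.65 and -3.64 in 2151R against 2208L. The neighbours were looked at after the values of Ndufa5 had been seen. The part of the position in these differences was not tested.

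**Figure D3:**
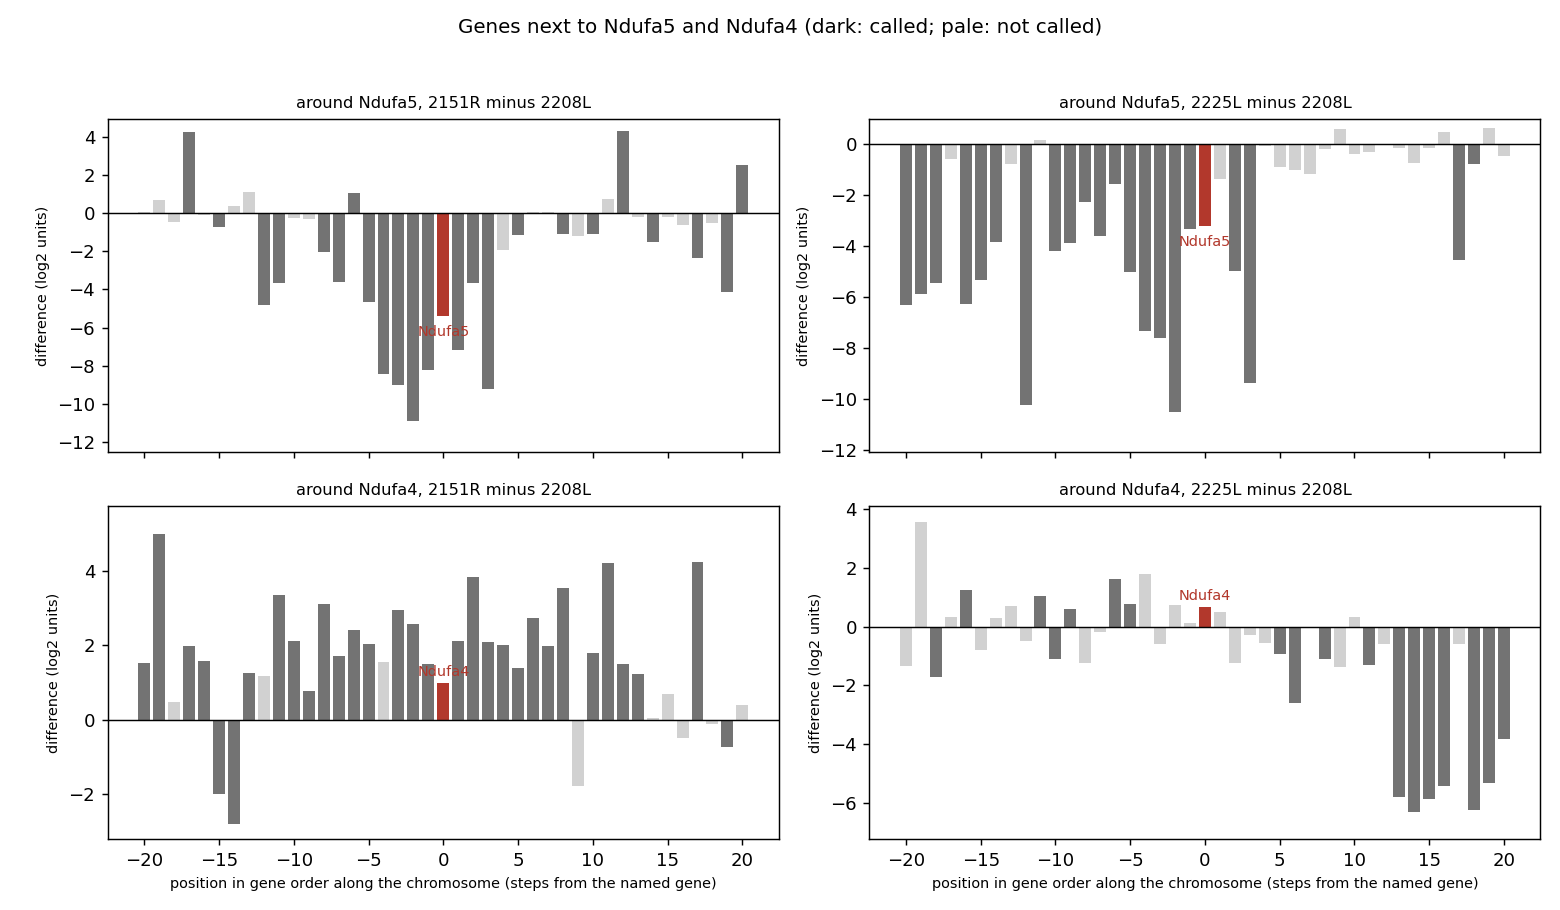
Bars give the difference in log2 units (vertical axis) of the 20 genes on each side of Ndufa5 (upper panels) and Ndufa4 (lower panels) in gene order (horizontal axis), for 2151R minus 2208L (left) and 2225L minus 2208L (right); dark bars passed the test, pale bars did not, and red marks the named genes. A run of genes around Ndufa5 is lower in both models than in 2208L, and the genes around Ndufa4 are mostly higher in 2151R (18 of the nearest 20 called) but not in 2225L (3 called higher and 4 lower).

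The other accessory subunits of complex I that were lower in 2151R differed by less than 1.5 log2 units. Ndufb11, a small X-linked subunit of the membrane arm, was at -1.19, -0.93 and -1.08 in 2151R and at -0.16 (lowest), 0.26 (median) and 1.21 (highest) in 2208L. The groups did not overlap, and the difference was -1.43 ± 0.35 (SE, adjusted p = 0.00725). Ndufc2 differed by -1.41 (adjusted p = 0.0124) and Ndufb2 by -1.38 (adjusted p = 0.0132), both also in the membrane arm. The call of Ndufc2 was lost without replicate 1 of 2151R (-1.31, adjusted p = 0.0552) and that of Ndufb2 without replicate 4 (-1.33, adjusted p = 0.0509). The core subunits carry the redox centres and the quinone site. Of their 7 differences 6 were negative, with a median of -0.34. The largest was that of Ndufs7, at -0.73 (95% interval -1.43 to -0.04, limma adjusted p = 0.0827). Ndufs1 and Ndufv1 differed by 0.07 and -0.03. The 95% intervals of Ndufs1 and Ndufv1 ran from -0.42 to 0.56 and from -0.72 to 0.65, so a change of 1 log2 unit was outside both.

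In complex IV, which reduces oxygen, the small subunits Cox6b1 and Cox7b were the members most clearly lower in 2151R. Cox7b was at -1.05, -0.76 and -1.05 in 2151R and at -0.19 (lowest), 0.36 (median) and 0.78 (highest) in 2208L, without overlap. Its difference was -1.28 ± 0.25 (SE, adjusted p = 0.00207), and it was called under every alternative tried. Cox6b1, at -1.04, -0.69 and -0.91 against -0.11, 0.27 and 1.06, differed by -1.31 ± 0.31 (SE, adjusted p = 0.00598). Cox4i1, a subunit through which ATP acts on the enzyme, differed by -0.93 (adjusted p = 0.0289), but without any 1 replicate of 2151R the adjusted p lay between 0.0691 and 0.0902. In complex III, Uqcrc1, a core protein of the matrix side, differed by -0.80 (adjusted p = 0.0324), and without any 1 replicate of 2151R its adjusted p lay between 0.0764 and 0.0982. It also missed the threshold without replicate 4 or 7 of 2208L, at 0.0508 and 0.0526. The catalytic subunits of ATP synthase, Atp5a1 and Atp5b, differed by 0.05 and 0.10 with adjusted p of 0.879 and 0.748.

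Against this direction, Sdhb and Ndufa12 were higher in 2151R. Sdhb, the iron-sulfur subunit of succinate dehydrogenase, was at 0.48, 0.48 and 0.41 in 2151R and at -1.03 (lowest), -0.61 (median) and -0.01 (highest) in 2208L. All samples of 2151R lay above all of 2208L, and the difference was 1.02 ± 0.25 (SE, adjusted p = 0.00846). It was 0.66 (adjusted p = 0.172) where 2208L was represented by its samples other than PBS. Sdha, the flavin-carrying partner of Sdhb, differed by 0.11 (adjusted p = 0.672). Ndufa12, an accessory subunit of the matrix arm, was at 0.47, 0.48 and 0.43 against -0.70 (lowest), -0.18 (median) and 0.08 (highest), a difference of 0.66 (adjusted p = 0.0288). That call was lost without any 1 replicate of 2151R (adjusted p of 0.0778 to 0.0862) and without replicate 3 of 2208L (0.0525). The pseudogene copy Atp5pb-ps was the third higher call, at 1.14 (adjusted p = 0.0037), and reads of such copies may belong to the parent gene.

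Ndufa4 shows how the reference level bears on a call. This small protein, once assigned to complex I and now to complex IV, was at 0.98, 1.05 and 0.95 in 2151R and at -0.79 (lowest), -0.14 (median) and 1.01 (highest) in 2208L, where replicate 1 overlapped with 2151R. The difference of 0.98 ± 0.41 (SE) was not called (adjusted p = 0.0775). Relative to the median ubiquitous subunit of the same sample, Ndufa4 lay at 1.35 to 1.56 in the 4 samples of 2151R and at -0.32 to 0.30 in the 8 of 2208L. In T11 the deposited value was -1.02, the lowest of all samples. Of the 20 genes nearest to Ndufa4 (chr6:11900372-11907450, GRCm38.p6), 18 were called higher in 2151R than in 2208L, with a median of 2.06.

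**Figure D4:**
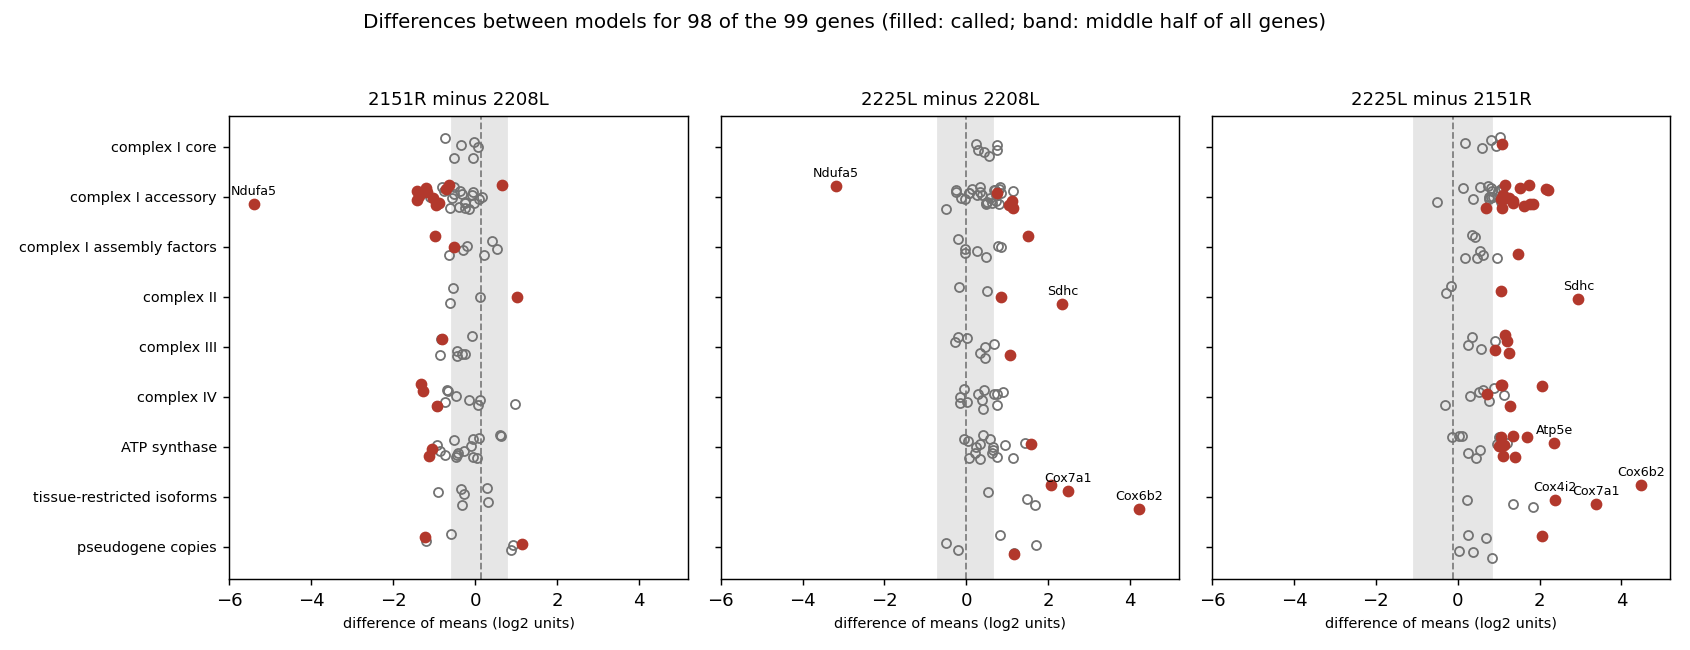
Each circle is 1 gene, with 98 of the 99 shown; the horizontal axis is the difference of model means in log2 units and rows are classes. Filled circles were called, the dashed line is the median and the grey band the range from the lower to the upper quartile of all 17271 genes. The genes lean to the left of the median in 2151R minus 2208L and to the right in the panels of 2225L, and large single differences belong to Ndufa5, Cox6b2, Cox7a1 and Sdhc.

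In 2225L the calls leaned to the higher side, with large differences in Sdhc and the isoforms Cox6b2, Cox7a1 and Cox4i2. Against 2208L, 14 of the 99 genes were higher and 1 lower (Ndufa5), while 15.9% of all genes were higher and 17.6% lower. The share of higher calls was close to that of all genes. The median difference was 0.51, against -0.01 over all genes, and 81 of the 99 differences were positive. Higher calls were made for 5 of 38 subunits of complex I, 1 assembly factor, 2 subunits of complex II, 1 of complex III, 1 of ATP synthase, 3 tissue-restricted isoforms and 1 pseudogene copy, and for 0 of 12 subunits of complex IV (1 at an unadjusted p under 0.05 in limma). The 2 samples of 2225L lay above all 6 of 2208L in 14 genes and below in 1, against 18.7% and 18.6% of all genes. Leaving out replicate 1 of 2208L gave 30 higher calls, beside 3038 of all 17271 genes. Leaving out replicate 1 of 2225L gave more higher calls and leaving out replicate 2 of 2225L fewer. The median difference was 0.91 without replicate 1 of 2225L, 0.21 without replicate 2, 0.29 with the library prefix as a covariate and 0.09 with 2208L as its samples other than PBS. Where 1 sample of 2225L was left, the fit took its spread from the other groups.

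Against 2151R, 42 of the 99 genes were higher in 2225L and 0 lower, with 0 lower also at an unadjusted p under 0.05 in limma. Of all genes, 21.7% were higher and 25.8% lower. The median difference was 0.97, against -0.11 over all genes, and it was 0.52 without replicate 2 of 2225L. Higher calls were made for 18 of 38 subunits of complex I, 1 of 8 assembly factors, 2 of 4 subunits of complex II, 4 of 8 of complex III, 5 of 12 of complex IV and 8 of 17 of ATP synthase. The samples did not overlap, with 2225L above, in 71 genes and, with 2225L below, in 2, against 30.6% and 35.1% of all genes. Fewer genes were called higher without replicate 2 of 2225L, where only replicate 1 of that model was left. Without replicate 1 or 4 of 2151R the higher calls were 23 and 24, while 3093 and 3002 of all 17271 genes were higher. Without replicate 1 of 2225L, 1 gene was lower. With each sample centred on its ubiquitous subunits, 13 were higher and 11 lower, and of all genes 1709 were higher and 7719 lower.

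Several of the small subunits that were lower in 2151R than in 2208L also differed between 2151R and 2225L. Ndufb11 was at 0.43 and 1.77 in 2225L, above all 3 samples of 2151R, a difference of 2.16 ± 0.45 (SE, adjusted p = 0.00277) that was called under every alternative tried. Cox7b was at 0.01 and 0.65 in 2225L and differed by 1.28 (adjusted p = 0.00798), but by 0.97 (adjusted p = 0.0699) without replicate 2 of 2225L. Ndufc2, at 0.18 and 1.77, differed by 1.74 (adjusted p = 0.0142), and by 0.94 (adjusted p = 0.152) without that replicate.

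The 3 genes for subunit c of ATP synthase, which form the proton-carrying ring, include a pair with different patterns, chosen after their values were seen. Atp5g1 was at -1.25, -0.94 and -1.10 in 2151R, at 0.33 and 0.89 in 2225L and between -0.77 and 0.85 in 2208L. It was lower in 2151R than in 2208L by -1.06 ± 0.31 (SE, adjusted p = 0.0189). Atp5g2 was at -0.20, -0.03 and -0.08 in 2151R, at 0.23 and 1.47 in 2225L and between -1.13 and -0.10 in 2208L, and it was higher in 2225L than in 2208L by 1.57 ± 0.36 (SE, adjusted p = 0.00775). The groups that carried these calls did not overlap, and the difference between the patterns of the pair was not tested.

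Among the ubiquitous subunits, Sdhc set 2225L apart. Sdhc, a membrane anchor of complex II that binds haem and ubiquinone, was at 2.64 and 2.21 in 2225L, at -0.53, -0.54 and -0.50 in 2151R, at -0.59 in T11 and at -0.41 (lowest), -0.03 (median) and 0.61 (highest) in 2208L. The 2 samples of 2225L lay well above all 13 others, the muscle-rich samples included. Sdhc was higher in 2225L than in 2208L by 2.35 ± 0.28 (SE, adjusted p = 0.000193) and than in 2151R by 2.95 ± 0.31 (SE, adjusted p = 3.86e-05). Of its partners, Sdhb was also called higher in 2225L than in 2208L, by 0.85 (adjusted p = 0.0462), with overlapping samples, and by 0.39 (adjusted p = 0.408) without replicate 2 of 2225L. That call was also lost without any 1 of replicates 2, 3, 4, 5 and 7 of 2208L (adjusted p of 0.0512 to 0.0821). Sdha differed from 2208L by -0.18 (adjusted p = 0.551) and Sdhd, the other membrane anchor, by 0.51 (adjusted p = 0.193).

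Of the 6 isoforms with restricted expression, 3 were called higher in 2225L than in 2208L and 0 lower (0 also at an unadjusted p under 0.05 in limma). Of all genes, 15.9% were higher and 17.6% lower. Cox6b2, the testis partner of Cox6b1, was at 2.35 and 4.44 in 2225L, at -1.04, -0.48 and -1.76 in 2151R, at -1.55 in T11 and at -1.23 (lowest), -0.91 (median) and -0.16 (highest) in 2208L. Both samples of 2225L lay above all 13 others, where the highest value was 0.63. The difference from 2208L was 4.22 ± 0.52 (SE, adjusted p = 0.000216) and from 2151R 4.49 ± 0.58 (SE, adjusted p = 0.000141). The common form Cox6b1 differed by 0.74 (adjusted p = 0.13) and by 2.06 (adjusted p = 0.00186). The neighbours of Cox6b2 (chr7:4751792-4753094, GRCm38.p6) had a median difference of -0.03 in 2225L against 2208L, and 3 of the 20 were called higher and 5 lower.

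Cox4i2 and Cox7a1 were also higher in 2225L, and the other isoforms were not called. Cox4i2, a form of subunit IV found in lung and vessel walls, was at 1.88 and 1.63 in 2225L and at -0.85 (lowest), -0.23 (median) and 0.16 (highest) in 2208L, a difference of 2.06 ± 0.37 (SE, adjusted p = 0.00206). Cox7a1, the heart and muscle form of subunit VIIa, was at 0.77 and 2.37 in 2225L and at -1.73 (lowest), -1.07 (median) and 0.80 (highest) in 2208L, where replicate 1 stood apart from the others and overlapped with 2225L. Its difference of 2.48 (adjusted p = 0.0136) was 1.68 (adjusted p = 0.149) without replicate 2 of 2225L. With the muscle-rich samples included it was 1.34 (adjusted p = 0.483). Ndufa4l2, a hypoxia-induced paralog of Ndufa4, was at 2.26 and 0.28 in 2225L and differed from 2208L by 1.49 (adjusted p = 0.0989). None of the 6 isoforms was called between 2151R and 2208L in limma, also at an unadjusted p under 0.05. Of all genes, 23.6% were higher and 19.2% lower in 2151R.

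In the 3 muscle-rich samples Cox6a2 and Cox8b were far higher than in the other samples of the same model, Cox7a1 was so in 2208L, and the ubiquitous subunits were slightly higher. Cox6a2, the heart and skeletal muscle form of subunit VIa, was at 7.78 and 7.27 in replicates 6 and 8 of 2208L and at 3.71 in replicate 3 of 2151R, and ran from -3.79 to 0.82 in the other 12 samples. Cox8b, the muscle form of subunit VIII, was at 8.66, 7.77 and 4.32 in the same samples and at most 2.11 elsewhere. The value of -1.78 for Cox8b is repeated in 3 samples and may be no measured level. Against replicate 7, which carries the same 3day nt mark, replicates 6 and 8 were higher by 7.25 and 6.74 for Cox6a2, by 9.04 and 8.15 for Cox8b and by 4.81 and 4.28 for Cox7a1. In replicate 3 of 2151R Cox7a1 was at -0.41, which is 1.40 above the mean of the other 2151R samples. Cox4i2 and Cox6b2 differed by less than 1 log2 unit in all 3 samples. The common partners Cox6a1, Cox7a2 and Cox8a were at 0.88, 0.89 and 0.46 in replicate 6 and at 0.80, 0.79 and 0.37 in replicate 7. The ubiquitous subunits were higher than in replicate 7 in 79 of 79 genes in both samples, by medians of 0.35 and 0.27. In replicate 3 of 2151R they exceeded the mean of the other 2151R samples in 75 of 79, by a median of 0.23. Of all 17271 genes, 8593, 8769 and 7086 were above 0 in these contrasts. Mitochondrial ribosome genes were above 0 in 53, 72 and 77 of 80, by medians of 0.12, 0.15 and 0.23, so in replicate 3 of 2151R they rose as much.

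Only a few of the 99 genes passed 1 log2 unit in these samples. They numbered 4 in replicate 6, 3 in replicate 8 and 4 in replicate 3 of 2151R on the higher side, against 11.4%, 6.76% and 2.94% of all genes. None of these was a ubiquitous subunit: Cox6a2, Cox7a1 and Cox8b passed in all 3 samples, Ndufa4l2 in replicate 6 and Cox7c-ps1 in replicate 3 of 2151R. On the lower side they numbered 0, 0 and 1 (Ndufa4l2), against 2.92%, 2.63% and 3.51% of all genes. These contrasts have no replicate on 1 side and carry no test.

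**Figure D5:**
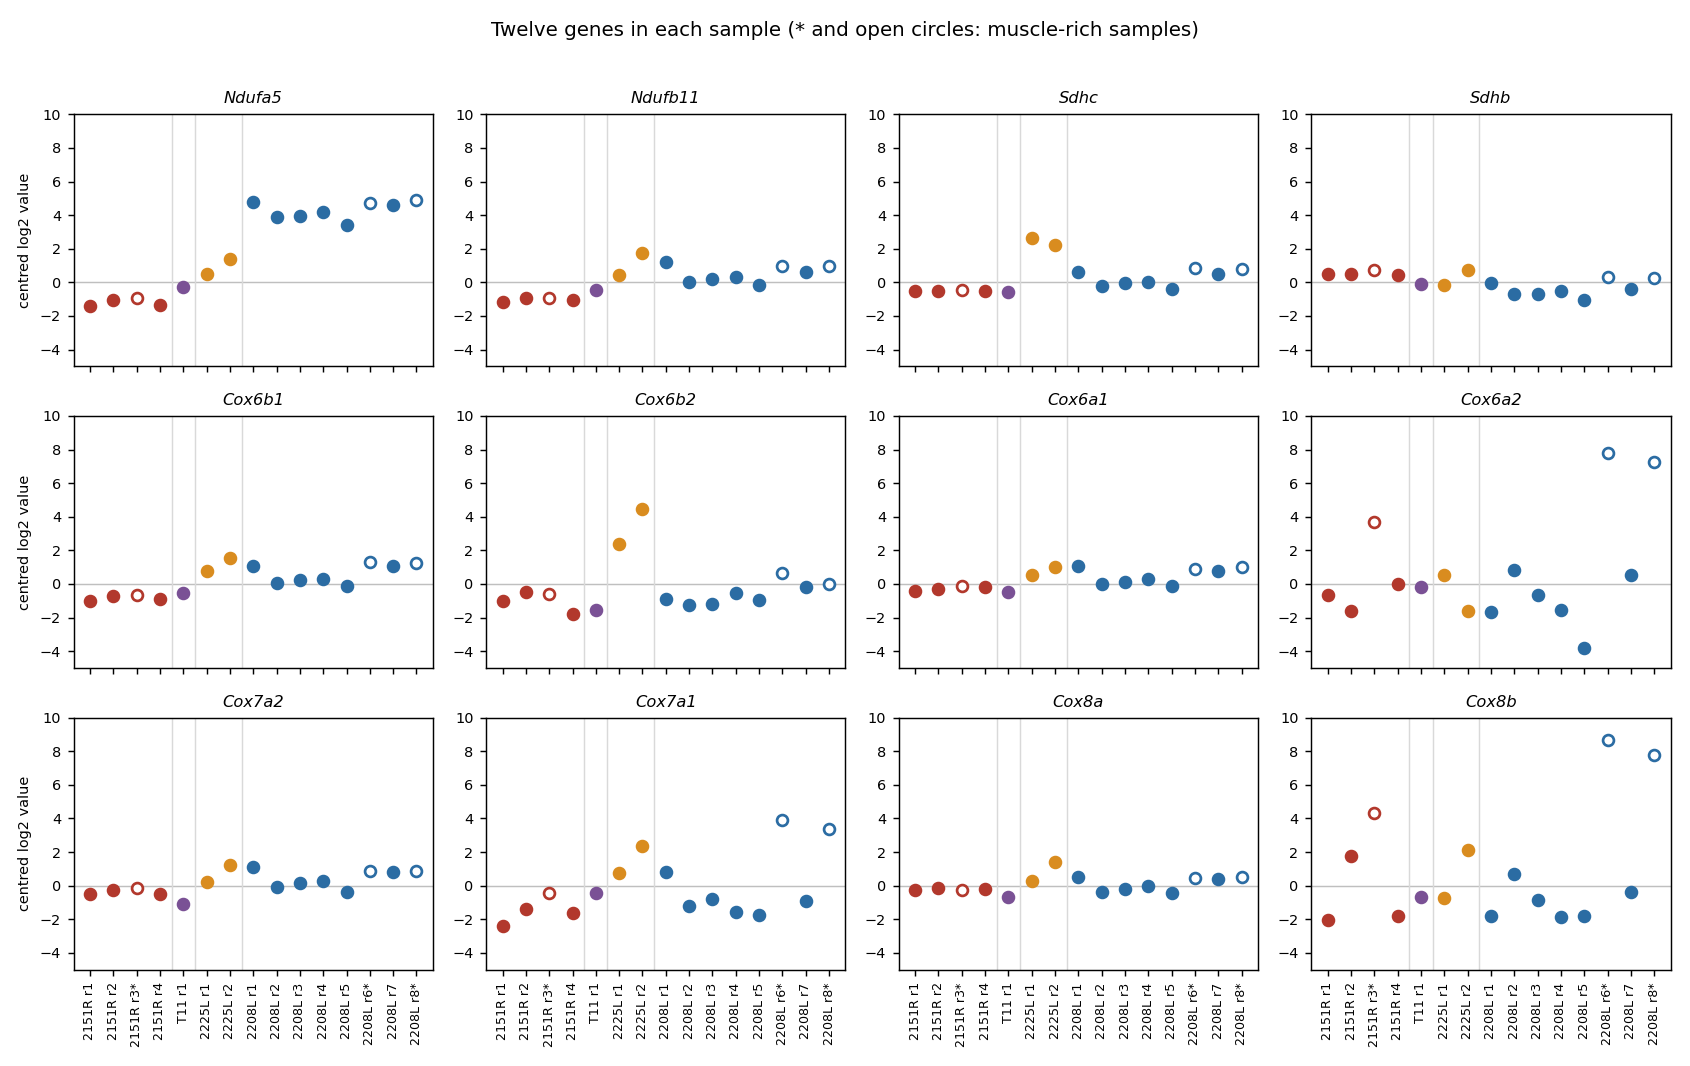
Points give the centred log2 value (vertical axis, the same range in each panel) of 12 genes in each of the 15 samples (horizontal axis), coloured by model; open circles mark the muscle-rich samples. Ndufa5 is high in all samples of 2208L, Sdhc and Cox6b2 in both of 2225L, and Cox6a2, Cox7a1 and Cox8b in the muscle-rich samples of 2208L, beside their common partners Cox6a1, Cox7a2 and Cox8a.

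T11 lay close to 2151R in the median of the chain, and few of the 99 genes lay at least 1 log2 unit from the 2151R mean. T11 has 1 sample, so its values carry no test. Against the mean of 2208L, 2 of the 99 genes were at least 1 log2 unit higher in T11 and 16 at least 1 lower, while 23.1% and 14.5% of all genes were. The lowest were Ndufa5 (-4.38), Ndufc2 (-1.74) and Ndufa2 (-1.66), accessory subunits of complex I. The highest were the pseudogene copies Atp5pb-ps (1.23) and Ndufs5-ps (1.05) and the muscle isoform Cox6a2 (0.86). Against the mean of 2151R, 3 genes were at least 1 higher and 2 at least 1 lower, against 14.4% and 10.4% of all genes. The median difference was -0.54 from 2208L and -0.06 from 2151R. Ndufa4 lay 2.01 below the mean of 2151R, with -1.02 against 0.99.

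Within 2208L the PBS samples were lower than the others in most of the chain. In 79 of the 99 genes the 4 PBS samples all lay below both replicate 1 and replicate 7, against 17.9% of all genes. Replicate 7 exceeded the PBS mean by a median of 0.71 in the ubiquitous subunits, with 78 of 79 genes above 0, and replicate 1 by 0.89, with 79 of 79. In replicate 7, 15 of the 99 genes were at least 1 log2 unit above the PBS mean and 1 at least 1 below, against 5.94% and 8.36% of all genes. In replicate 1 these were 30 and 0, against 5.33% and 13.5%. The median over all genes was -0.00 and -0.07 in the same contrasts. The 80 mitochondrial ribosome genes exceeded the PBS mean by medians of 0.60 and 0.66. Among the ubiquitous subunits the largest excess of replicate 1 was in Ndufa2, an accessory subunit of complex I, at 1.80 against -0.03, 0.15, 0.31 and -0.16 in the PBS samples. The mark in the title and the range of library numbers go together, so they cannot be told apart here.

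The choice of 2208L samples changed the comparisons above. With the PBS samples alone, 47 of the 99 genes were higher in 2225L, and with the samples other than PBS 4 were, while 3382 and 923 of all 17271 genes were. The median difference of the 99 genes was 0.76 and 0.09 in these fits. For 2151R the lower calls were 33 with the samples other than PBS, beside 2410 of all genes, and the median difference was -0.87, and -0.22 with the PBS samples. The 2 samples of 2225L also differed from each other. Replicate 2 exceeded replicate 1 by a median of 0.76 over the 99 genes, with 83 above 0, and by at least 1 log2 unit in 36 genes, against 18.6% of all genes. It was at least 1 lower in 4, against 15.5%. Sdhc was an exception, with 2.64 in replicate 1 and 2.21 in replicate 2.

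The 13 subunits encoded by mitochondrial DNA differed between models in another direction than the nuclear ones. Their median was 1.48, 1.35 and 1.19 in replicates 1, 2 and 4 of 2151R and 0.99 in T11, where the nuclear subunits were low. In 2151R against 2208L, 6 of the 13 were higher and 0 lower (0 also at an unadjusted p under 0.05 in limma): mt-Cytb of complex III and mt-Nd1, mt-Nd2, mt-Nd4, mt-Nd5 and mt-Nd6 of complex I. mt-Nd6 differed by 1.90 ± 0.55 (SE, adjusted p = 0.0188). Of all genes, 23.6% were higher and 19.2% lower in this comparison. In 2225L against 2151R, 4 were lower and 0 higher, among them mt-Nd4l, lower by -2.74 (adjusted p = 0.00724). The share of lower calls (30.8%) was near that of all genes, of which 25.8% were lower and 21.7% higher. The median was 0.99 in replicate 1 of 2225L, -1.43 in replicate 2 and -0.63 in replicate 1 of 2208L, so it was lowest in both libraries with a ROSEN number, in which the nuclear subunits were high. Within 2208L, replicate 7 was above the PBS mean in 12 of the 13, by a median of 0.98, beside 78 of 79 nuclear subunits, and replicate 6 was above replicate 7 in 12 of the 13, by a median of 0.62. The libraries were selected for poly(A) tails, and the part of the library number in this pattern was not tested.

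Other lists of mitochondrial genes, chosen for their function, gave mixed calls in 2151R against 2208L, where 23.6% of all genes were higher and 19.2% lower. Of 33 further assembly factors, 4 were higher and 7 lower, and of 16 citric acid cycle genes 3 and 3. Sdhaf4, which helps to assemble Sdha with Sdhb, was lower by -1.76 (adjusted p = 0.00545), and Suclg2, a subunit of succinyl-CoA ligase, was higher by 2.84 (adjusted p = 0.00129). Of 80 mitochondrial ribosome genes 3 were higher and 7 lower, and of 24 import genes 1 and 6. In 2225L against 2208L, 15 of the ribosome and 9 of the import genes were higher and 0 lower. Of all genes, 15.9% were higher and 17.6% lower. In 2225L against 2151R, 25 ribosome genes were higher and 1 lower, and 12 import genes were higher and 0 lower. Of all genes, 21.7% and 25.8% were. The further assembly factors gave 8 higher and 2 lower calls in 2225L against 2208L, and 12 and 0 against 2151R. In 2151R against 2208L, 5 of 20 regulators of mitochondrial gene expression were higher and 3 lower. Ppargc1a, the coactivator PGC-1alpha that raises transcription of respiratory chain genes, was at -2.99, -3.44 and -2.68 in 2151R, at -1.48 in T11, at 0.51 and 0.10 in 2225L and at 0.49 to 1.20 in the 6 samples of 2208L. It was lower in 2151R than in 2208L by -3.79 ± 0.22 (SE, adjusted p = 3.63e-07). Esrrg, a nuclear receptor that works with it, was lower by -5.71 (adjusted p = 0.00267). Esrrg was at 0.97 in T11, where the nuclear subunits were low, and at -3.79 and 2.57 in replicates 1 and 2 of 2225L. The median difference of the 20 regulators between 2151R and 2208L was 0.06. The part of these regulators in the differences of the chain was not tested.

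Markers of several other cell types differed in these comparisons. In 2151R against 2208L, 23.6% of all genes were higher and 19.2% lower, and the share of higher T cell genes (28.6%) was near the first. In 2151R against 2208L, 5 of 10 macrophage, 5 of 10 white adipocyte, 3 of 7 fibroblast, 2 of 7 T cell and 5 of 6 endothelial genes were higher and 0 lower (0 also at an unadjusted p under 0.05 in limma), and 8 of 10 epithelial genes were lower and 2 higher. The medians of the macrophage list were 0.66 to 1.02 in 2151R, 1.06 in T11, -0.82 to -0.09 in 2208L and -2.18 to -0.76 in 2225L. Of the skeletal muscle list, 1 of 18 was higher and 4 lower, and sample medians were -2.48 to -1.98 in 2151R and -3.43 to 2.45 in 2208L. Of 6 brown adipocyte genes 1 was higher and 2 lower, of 11 heart and slow muscle genes 1 and 2, and of 12 proliferation genes 4 and 0 (0 lower at an unadjusted p under 0.05 in limma). In 2225L against 2208L, 5 of 10 macrophage and 3 of 11 heart and slow muscle genes were lower. Higher were 3 of 6 brown adipocyte, 3 of 10 epithelial and 2 of 12 proliferation genes, beside 15.9% of all genes higher and 17.6% lower. In 2225L against 2151R, 10 of 10 macrophage and 4 of 7 fibroblast genes were lower, and 9 of 10 epithelial and 4 of 6 brown adipocyte genes higher. Also lower were 1 of 6 endothelial, 1 of 7 T cell, 1 of 10 white adipocyte and 3 of 12 proliferation genes. Heart and slow muscle gave 2 higher and 2 lower of 11, and adult skeletal muscle 2 and 1 of 18. Of all genes, 21.7% were higher and 25.8% lower. The part of these cells in the differences of the respiratory chain genes was not tested.

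Across the 12 samples the ubiquitous subunits varied together. Pearson's r between pairs of them had a median of 0.742, given as a description since the genes share their samples and the models. Ndufa12 had the lowest median r with the others (-0.28), followed by Sdhb (0.184) and Sdha (0.190). The median SD of a ubiquitous subunit over the 12 samples was 0.564, against 0.696 over all genes, and Ndufa5 had the largest SD of the 99 genes, at 2.49.

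The promoters of these genes were searched for the letters bound by regulators of the chain. RefSeq promoters of GRCm38.p6, which span the bases just before and after a start, matched 75 of the 99 genes by symbol, with 80 promoters, and 12100 of all genes, with 15382. GCGC, any 2 bases and GCGC again, the core of the site of NRF1, was found on either strand in 27.5% of them and in 11.4% of all promoters. CCGGAAG, an ETS site as bound by GABP, was found in 23.8% and 15.4%, and TCAAGGTCA, the site of estrogen-related receptors, in 2.5% and 0.254%. CAGCTG, an E-box bound by muscle regulators, was found in 7.5% and 15.9%. A promoter can hold more than 1 of the motifs. Median GC content was 58.5% and 60%. These are matches of letters, not sites, and whether the motifs bear on the differences was not tested. The promoters below belong to Ndufa5 and Cox6b2, which differed most between models, to Cox6b1, the common partner of Cox6b2, and to the muscle isoform Cox7a1. Capitals mark a match to any of the 4 motifs. Ndufa5 holds an NRF1 match (chr6:24527641-24527940, minus strand), Cox6b1 an ETS match on the opposite strand (chr7:30626065-30626364, minus strand), and Cox6b2 (chr7:4753045-4753344, minus strand) and Cox7a1 (chr7:30183921-30184220, plus strand) hold none.
Ndufa5: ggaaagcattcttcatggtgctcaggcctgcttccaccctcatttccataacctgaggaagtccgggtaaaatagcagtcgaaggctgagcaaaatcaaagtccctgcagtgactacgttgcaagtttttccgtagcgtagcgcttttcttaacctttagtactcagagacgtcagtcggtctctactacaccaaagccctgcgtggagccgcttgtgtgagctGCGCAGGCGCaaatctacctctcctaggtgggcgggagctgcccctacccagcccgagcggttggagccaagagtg
Cox6b1: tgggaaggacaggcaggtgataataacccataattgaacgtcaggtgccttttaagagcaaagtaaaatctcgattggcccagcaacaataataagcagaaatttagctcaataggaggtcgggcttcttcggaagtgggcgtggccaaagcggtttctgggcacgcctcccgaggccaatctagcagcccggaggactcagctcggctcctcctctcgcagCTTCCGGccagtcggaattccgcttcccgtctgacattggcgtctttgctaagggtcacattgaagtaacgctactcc
Cox6b2: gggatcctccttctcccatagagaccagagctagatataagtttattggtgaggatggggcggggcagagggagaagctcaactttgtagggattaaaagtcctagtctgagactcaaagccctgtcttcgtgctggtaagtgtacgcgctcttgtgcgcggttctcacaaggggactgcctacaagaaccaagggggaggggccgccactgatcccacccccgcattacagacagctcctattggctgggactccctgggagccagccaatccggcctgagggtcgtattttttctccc
Cox7a1: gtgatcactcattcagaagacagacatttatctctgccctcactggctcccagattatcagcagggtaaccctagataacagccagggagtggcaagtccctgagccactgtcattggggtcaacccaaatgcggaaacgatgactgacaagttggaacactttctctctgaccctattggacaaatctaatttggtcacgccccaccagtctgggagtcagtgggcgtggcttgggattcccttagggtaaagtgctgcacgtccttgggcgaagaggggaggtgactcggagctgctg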

How the data were processed

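The deposited table holds log2 values that the authors made and centred per gene. STAR, Salmon and mm10 are named in the submitters' processing notes, without roles, and the normalization and the centring reference are not given in the sources used here. RNA was extracted with RNeasy and sequenced as poly(A) libraries, per the labels' protocols. No counts are in the table, so depth is unknown and no interval from counts can be given. Its 17271 genes were used without a filter. 727 genes hold a value shared by samples, which may not be a measured level.

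Groups come from the titles. A limma model (version 3.58.1, R 4.3.3; lmFit and eBayes without trend) was fitted on 12 samples, with Benjamini-Hochberg adjustment over all genes and a threshold of 0.05. On simulated data of 17271 genes with 200 changed, the fit for 2151R against 2208L recovered 27% of changes of 1 log2 unit and 69% of changes of 2, with 5 false of 101 calls. For 2225L against 2208L it recovered 15% and 69% (4 false of 88), and for 2225L against 2151R 12% and 55% (6 false of 73). In the real data far more genes were called, with 4072 higher and 3310 lower in 2151R against 2208L. The adjusted threshold depends on that number, so these rates do not give the share of real changes that was found. T11, with 1 sample, and the 3 muscle-rich samples were compared without a test. Genes were named by rule: the 5 largest called differences in each direction per comparison, 3 in each direction in T11, all tissue-restricted isoforms, their common partners, the core and catalytic subunits, and the largest differences of the other lists; the rest, such as chromosomal neighbours, Ndufa2 as an excess in 2208L and genes of mitochondrial DNA, were chosen after their values were seen. The genes and lists were chosen with earlier results of these data known. Alternatives changed the samples, scaling, moderation, weights, gene filters, threshold and covariates. Positions are those of RefSeq on GRCm38.p6, which placed 98 of the 99 genes by symbol. The values of 1 gene of the 99 are not reported here, though it entered every count and median.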

Additional observations from a re-analysis of the deposited data

Results flagged for a closer look

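In 4 of 100 groups of samples tested, 1 sample stood apart from the others of its model, where chance gives about 5. Atp5a1, the alpha subunit of ATP synthase, was -0.0887 in replicate 2 of 2151R and 0.21 to 0.26 in the other 3 samples. The median of complex III was -0.10 in replicate 3 of 2151R, which is muscle-rich, and -0.37 to -0.33 in the others. The pseudogene copy Atp5pb-ps was -1.31 in replicate 5 of 2208L and -0.53 to -0.20 in the other 5. Cox7a1 was 0.80 in replicate 1 of 2208L and -1.73 to -0.81 in the other 5.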

How the results depend on the processing

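Of 39 calls of named genes, 13 kept their direction and call under all alternatives run, among them Ndufa5 in all 3 comparisons and Sdhc and Cox6b2 in both comparisons of 2225L. Counts of called genes moved more, and the cause was not tested. In brackets after each count stands the count over all 17271 genes. In 2151R against 2208L the higher calls, 3 (4072), became 7 (3822) with 2208L as its PBS samples and 1 (2870) with its other samples. They became 5 (4508) with all 15 samples, 6 (4709) with the muscle score as a covariate and 15 (5660) with each sample centred on its ubiquitous subunits. They were 6 (4598) with the samples of the 2 models, 11 (6693) with sample weights and 8 (4593) with CP libraries. The lower calls, 20 (3310), became 33 (2410) with 2208L other than PBS, 37 (3926) with all 15 samples and 54 (5775) with weights. They became 12 (2434) with a difference of at least 1 log2 unit and 11 (1836) with the ubiquitous centring. With samples titled NT, nt or PBS, where only replicate 4 of 2151R was left, both counts fell. In 2225L against 2208L the higher calls, 14 (2748), became 47 (3382) with PBS, 4 (923) with the other samples and 8 (2693) with all 15 samples. They were 8 (2125) with the 2 models and 4 (876) with weights. The lower call, 1 (3041), became 5 (3168) with the ubiquitous centring and 2 (3108) with the prefix as a covariate. In 2225L against 2151R the higher calls (42) became 13 with the ubiquitous centring and 23 with CP libraries, and the lower calls (0) became 1 with the muscle score and 11 with the ubiquitous centring, where Cox5b (-0.23) and Uqcrc2 (-0.038) changed sign. Leaving out 1 sample gave 2 to 5 higher and 8 to 28 lower calls in 2151R against 2208L, 8 to 30 and 1 to 2 in 2225L against 2208L, and 15 to 58 and 0 to 1 in 2225L against 2151R. The CP-only fit, the 2208L samples other than PBS and the ubiquitous centring were chosen after seeing the data. No paired analysis was possible because no label joins a sample of 1 model to a sample of another.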
